A study of Caenorhabditis elegans with 83 samples.

Results

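The histone deacetylase HDA-1 of Caenorhabditis elegans belongs to class I, and its binding to chromatin was compared between control worms and set-26(tm2467) mutants that kept their germline. The binding was mapped by CUT&RUN, in which an antibody brings a nuclease to a protein and the cut DNA next to it is sequenced. Both strains carried syb5185[hda-1::gfp::ha], a knock-in that adds GFP and an HA tag to the C-terminus of the endogenous HDA-1, and the mutants also carried set-26(tm2467). Worms were grown for about 48 h at 25 °C on bacteria with L4440, the empty RNAi vector, and were taken whole as day 1 adults, with somatic and germline cells together. For each genotype 2 replicates of HDA-1 and 2 of histone H3 from the same worms were sequenced, which makes 8 of the 83 samples of the series. The unit of description was a peak, a unique interval of the list that the authors called for each genotype against H3 after merging the 2 replicates. A control peak was kept if a mutant peak overlapped it by at least 1 bp and lost if none did, and a mutant peak was new if no control peak overlapped it. There were 8253 control peaks and 3741 mutant peaks, and they gave 3245 kept, 5008 lost and 272 new peaks.

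Since each genotype had 1 merged list, no value here has a replicate error and no test between genotypes could be made. Intervals are exact Clopper-Pearson intervals at 95% and cover counting error only. The merged libraries held 71.5 M HDA-1 tags and 62.7 M H3 tags in control and 64.5 M and 63.8 M in mutants, so depth was close in both genotypes. A fold is the pileup of HDA-1 tags at a peak's summit over the local background estimated from H3, and −log10 q is the score of the authors' test for that peak alone.

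As background, histone deacetylases remove acetyl groups from histone tails, which is commonly linked to lower transcription, and HDA-1 works in complexes such as NuRD. SET-26 is a SET-domain and PHD-finger protein that binds trimethylated lysine 4 of histone H3, and HCF-1, the worm host cell factor, occupies chromatin with it. Worms that lack either of them live long. In whole adults much of the chromatin comes from the germline, so a peak can stem from either compartment, and fewer cells that hold a site and less binding per cell cannot be told apart.

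Some of the peaks that moved furthest from the rest held repeated sequence, and the printed windows show the 2 kinds. Each window is 151 bases around the summit of a control peak, on the plus strand of WBcel235, read from the RefSeq assembly. In the first pair, near vha-19 (a vacuolar ATPase subunit) and age-1 (the catalytic subunit of the insulin pathway's PI3 kinase), fold was 4.06 and 4.14 times the control value in mutants, and capitals mark AAGGATC on either strand.
vha-19, IV:3366845-3366995: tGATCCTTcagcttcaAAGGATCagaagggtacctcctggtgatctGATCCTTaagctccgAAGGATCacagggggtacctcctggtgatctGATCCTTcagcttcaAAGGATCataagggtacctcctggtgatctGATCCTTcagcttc
age-1, II:11528087-11528237: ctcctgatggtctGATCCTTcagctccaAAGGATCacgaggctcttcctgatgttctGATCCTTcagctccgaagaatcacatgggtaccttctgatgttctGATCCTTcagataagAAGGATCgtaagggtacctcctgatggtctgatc

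Successive copies on a strand stood 44 to 46 bp apart, and 89 bp apart where the age-1 window had a changed copy between them, which is the layout of a tandem array. The vha-19 window held 7 copies on both strands together and the age-1 window 5. In the next set, at the gene pair ubc-6 (a ubiquitin-conjugating enzyme) and aka-1, at cacn-1 (cactin, which is tied to splicing) and at the pair mmab-1 and ula-1, the mutant fold was among the lowest relative to control or the peak was lost. Capitals mark 5 words of 9 letters, some of which overlap: GATTGGCCC, CCGTGGCTT, TGCAATACG, AATACGCCC and GCCGCACGG.
ubc-6 and aka-1, II:7478923-7479073: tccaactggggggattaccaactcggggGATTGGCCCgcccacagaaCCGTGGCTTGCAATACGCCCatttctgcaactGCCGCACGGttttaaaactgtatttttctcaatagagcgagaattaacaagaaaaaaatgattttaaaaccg
cacn-1, II:14142253-14142403: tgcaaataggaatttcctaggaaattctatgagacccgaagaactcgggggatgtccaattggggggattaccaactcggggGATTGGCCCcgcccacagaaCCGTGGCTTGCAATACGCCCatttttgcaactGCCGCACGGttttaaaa
mmab-1 and ula-1, III:4922111-4922261: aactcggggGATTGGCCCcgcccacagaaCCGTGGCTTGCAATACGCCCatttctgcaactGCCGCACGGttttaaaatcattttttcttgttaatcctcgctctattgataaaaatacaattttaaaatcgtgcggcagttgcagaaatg

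The 3 windows lie at separate places but shared runs of 37, 53 and 62 identical bases in the 3 pairings. In the mmab-1 and ula-1 window a run of 21 bases occurred on both strands, so the copy there is partly an inverted repeat. The last pair, without either repeat, comes from among the strongest kept and the strongest lost promoter peaks. The peak of hlh-11, a basic helix-loop-helix factor, was kept and held a run of GA (GAGAGAGA in capitals), and that of the gene pair W04B5.3 and W04B5.5 was lost and held TGATAA, the core that GATA factors bind.
hlh-11, III:9619309-9619459: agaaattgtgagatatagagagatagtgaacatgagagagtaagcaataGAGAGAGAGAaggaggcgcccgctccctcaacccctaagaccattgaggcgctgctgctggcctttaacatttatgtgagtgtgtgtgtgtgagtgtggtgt
W04B5.3 and W04B5.5, III:2418378-2418528: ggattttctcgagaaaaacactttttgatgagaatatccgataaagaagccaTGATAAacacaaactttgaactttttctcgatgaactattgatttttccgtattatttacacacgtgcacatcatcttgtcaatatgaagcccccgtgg

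HDA-1 had fewer and weaker peaks in set-26(tm2467) worms. The control list held 8253 peaks over 4.36 Mb and the mutant list 3741 over 1.66 Mb, which is a ratio of 0.453 (95% interval 0.436 to 0.471) in number and 0.380 in covered length. Of the control peaks 39.3% were kept (38.3 to 40.4) and 60.7% were lost. Of the mutant peaks 7.27% were new (6.46 to 8.15), so the mutant list was mostly a subset of the control list. With the control list reduced by −log10 q to the number of mutant peaks, 72.6% were kept.

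Kept and lost peaks differed in how strong they were in control worms. When control peaks were put in 5 equal strata of −log10 q, the kept share was 6.0%, 10.7%, 23.4%, 59.4% and 97.2% from the weakest stratum to the strongest. The 424 control peaks of at least 5-fold enrichment and a local H3 of no more than 2 times the genome level were all kept, whereas 13.8% of those from 1.5- to 2-fold were. The median control fold was 2.83 at kept and 1.69 at lost peaks, and the median mutant fold of new peaks was 1.52. Lost and new peaks had median widths of 342 bp and 278.5 bp, and kept peaks were wider, with several summits in 22.7% of them against 12.4% of lost peaks. At the edge of the rule, the smallest overlap of a kept peak was 22 bp and 5 kept peaks overlapped by under 50 bp. The nearest lost peak lay 22 bp from a mutant peak, and 371 lost peaks had one within 500 bp.

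**Figure D1:**
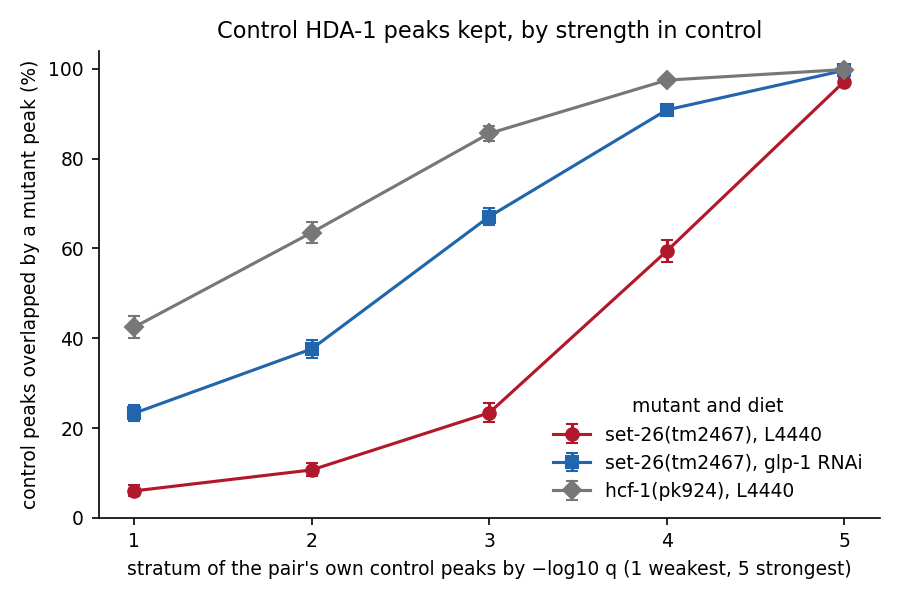
Share of control HDA-1 peaks overlapped by a mutant peak (%, y axis) in 5 equal strata of the pair's own control list by −log10 q (x axis), with exact 95% intervals that cover counting error only. In set-26(tm2467) on L4440 the share rose from 6.0% to 97.2%, and it lay under that of the 2 other pairs in each stratum.

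Fewer control peaks were kept on L4440 than in the same genotype with glp-1 RNAi. With glp-1 RNAi, which is used to reduce the germline, the control list held 12044 peaks and the set-26(tm2467) list 9404, 63.7% of control peaks were kept and 8.63% of mutant peaks were new. Those lists come from other libraries, with 53.3 M and 56.8 M HDA-1 tags, and 54.5 M and 85.6 M H3 tags, and the difference between the 2 diets has no replicate error. In hcf-1(pk924) on L4440, which was set against the same control libraries as set-26(tm2467), the list held 7679 peaks, 77.8% of control peaks were kept and 14.1% of mutant peaks were new. The median ratio of mutant to control fold at kept peaks was 0.661 in set-26(tm2467) on L4440, 0.765 in set-26(tm2467) with glp-1 RNAi and 0.939 in hcf-1(pk924).

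Kept peaks were themselves lower in the mutant list. Of 3245 kept peaks 3010 (92.8%) had a lower fold, and the median ratio was 0.661 (order-statistic interval 0.655 to 0.670). The pileup at the summit, per scaled tag, gave 0.644. The local background has the genome level as its lowest value and lay near it at most peaks (median 1.00 times it at the 8169 control peaks under 2 times), so these values do not show whether H3 itself differed there. In the strongest stratum, of which nearly all peaks were kept, the median ratio was 0.583. It was 1.09 among the few kept peaks of the weakest stratum, where only peaks that stayed high enough to be called in mutants could enter. Summits of kept peaks lay a median of 23 bp apart in the 2 lists, and 74.9% lay within 50 bp.

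**Figure D2:**
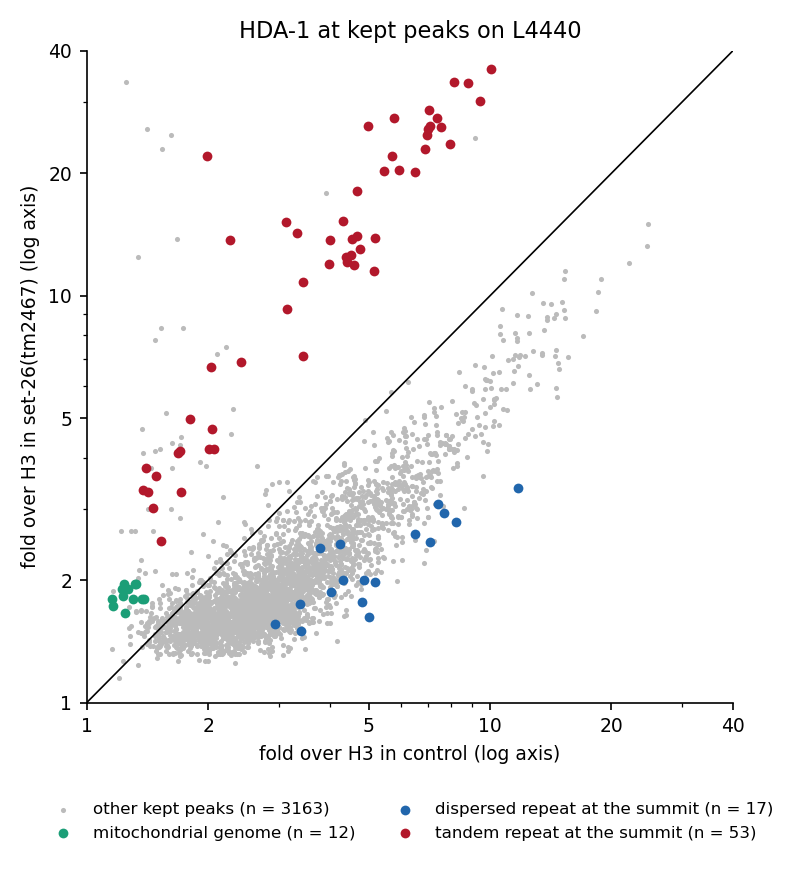
Fold over H3 in control (x axis, log) and in set-26(tm2467) (y axis, log) of the 3245 kept peaks, with the line of equal fold. Most points lie under the line, the 53 peaks with the tandem repeat and the 12 of the mitochondrial genome all lie above it, and the 17 kept peaks with the dispersed repeat lie under the line.

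**Figure D3:**
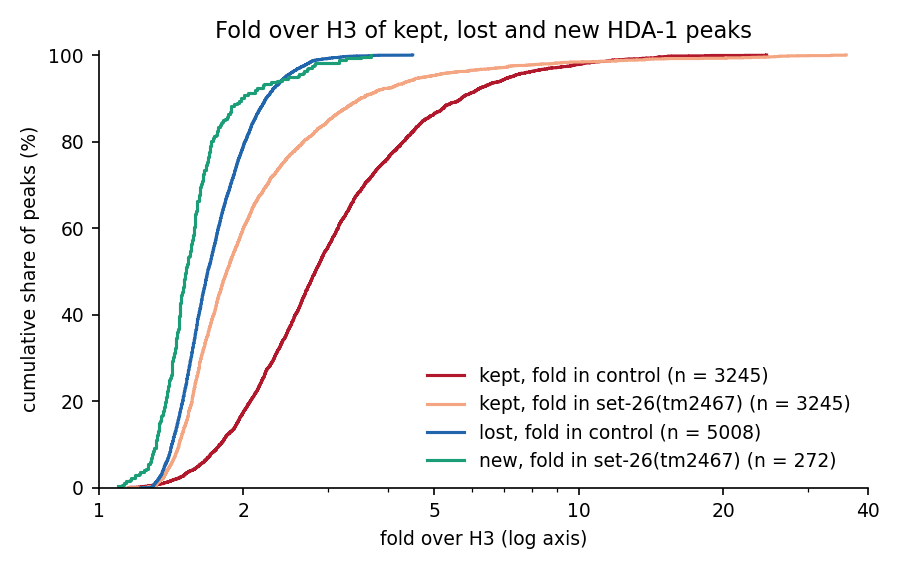
Cumulative share of peaks (%, y axis) against fold over H3 (x axis, log) for kept peaks in both lists, lost peaks in control and new peaks in set-26(tm2467). The median fold of kept peaks was 2.83 in control and 1.85 in mutants, and that of lost and of new peaks was 1.69 and 1.52.

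Among the 12 strongest kept peaks at promoter windows (from 2000 bp upstream to 500 bp downstream of a gene start), those without the tandem repeat were lower in mutants. The peak of bet-2, a bromodomain protein, at X:10568052-10569288 went from 24.6-fold in control to 15-fold. That of F48C1.3 went from 22.1 to 12, that of hlh-11 from 18.8 to 11 and that of T28F4.1 from 18.5 to 10.2. At hmg-1.2, an HMG-box protein, the fold was 17 and 7.95, at aagr-3 and cal-7 it was 14.8 and 6.59, and at sup-26, an RNA-binding protein, 14.2 and 9.56. These 7 peaks had a fold of 12.9 to 26.8 in set-26(tm2467) worms with glp-1 RNAi. The rDNA peak assigned to F31C3.6 went from 5.39 to 3.36, where the local H3 was 178 times the genome level. The other 4 of the 12 held the tandem repeat and were higher: the pair near vha-19, the one at Y57G11C.8 (5.18 and 13.9) and the one at age-1.

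The kept peaks of the strongest stratum with the lowest ratios lay within 2075 bp of a gene start, mostly between genes. At ubc-6 and aka-1 (II:7478590-7479355) the fold was 11.7 in control and 3.37 in mutants, a ratio of 0.288. It was 6.87 and 2.20 at oaz-1, the ornithine decarboxylase antizyme, 5.0 and 1.62 at W04A8.6, and 8.24 and 2.77 at cacn-1 (II:14142060-14142715). It was 5.89 and 1.99 at frm-7 and 4.18 and 1.42 at the shared promoter of the ribosomal protein genes rpl-24.1 and rps-10. All 6 peaks were also in the SET-26 list on L4440, at 3.55- to 38.0-fold, as were 85% of all kept peaks of the strongest stratum. Of these 6, 3 held the dispersed repeat of the printed windows. All 6 were lower in the other set-26(tm2467) pair too, at ubc-6 and aka-1 with 18.9 in control and 7.30 in mutants and at cacn-1 with 11.5 and 4.96.

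The 12 strongest lost peaks at promoters had control folds from 3.24 to 4.51, well under those of the strongest kept peaks. The strongest stood between mmab-1, a cobalamin adenosyltransferase, and ula-1, a subunit of the NEDD8-activating enzyme (III:4921806-4922468), at 4.51-fold with a pileup of 632. The pud-1 and pud-2 cluster on V gave another 2, at 3.97 and 3.66. The rest were the W04B5.3 and W04B5.5 pair at 3.77, che-14 at 3.72, exc-14 at 3.72, enu-3.1 and smrd-1 at 3.67, and mtr-4, an RNA helicase of the nuclear exosome, at 3.46. Lower ones were at cah-4, a carbonic anhydrase (3.45), spat-3, a RING-finger protein (3.38), cul-5, a cullin (3.34), and zipt-11, a zinc transporter (3.24). All 12 were present in the wild type list on OP50, and all 12 in both glp-1 RNAi lists. Of all 47 lost peaks of the strongest stratum, 100% were in the wild type list and 100% in the glp-1 RNAi control list. For the set-26(tm2467) list with glp-1 RNAi the share of the 47 was 95.7%. The shares of kept peaks of that stratum in these 3 lists were 99.2%, 97.6% and 99.6%. At mmab-1 and ula-1 the glp-1 RNAi fold was 7.53 in control and 3.06 in set-26(tm2467), and at spat-3 it was 5.07 and 4.86. Of the 12, 9 were bound by SET-26, at up to 13.4-fold, against 83% of all 47 lost peaks of the strongest stratum.

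Beyond the strongest, lost peaks recurred in other HDA-1 libraries, at shares under those of all control peaks. Of the 5008 lost peaks 93.8% were overlapped by a peak of glp-1 RNAi control worms, 72.4% by one of wild type worms on OP50 (called against antibody background) and 75% by one of set-26(tm2467) worms with glp-1 RNAi. Of all control peaks 94.6%, 81.7% and 83.7% were, in that order. Of the lost peaks 76.6% overlapped a glp-1 RNAi control peak that was kept in set-26(tm2467) there, and 17.3% overlapped one that was lost there too. Among the kept peaks these shares were 95.3% and 0.40%. In the strongest stratum 45 of 47 lost peaks were kept with glp-1 RNAi. New peaks recurred less: 14.3% of them were in the glp-1 RNAi control list, 18.8% in the set-26(tm2467) list with glp-1 RNAi and 11.4% in the wild type list. Of all mutant peaks 90.6%, 92.0% and 90.3% were, in that order.

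Of the 3245 kept peaks 235 were higher in mutants, and the tandem repeat was at most of the large rises of the strongest stratum. The word and its minimum of 3 copies in 301 bp around the summit were chosen after the values were seen, so these counts are a description and no support for the pattern. Of the control peaks 53 held it, and all 53 were kept, against the 39.3% of all control peaks. Of the 53, 36 were in the strongest stratum, where 97.2% of all control peaks were kept. The other strata, from the weakest up, held 6, 2, 7 and 2. All 53 had a higher fold in mutants, with a median of 4.43 in control and 13.7 in mutants, and the ratio ran from 1.63 to 11.04 with a median of 3.04. Neighbouring control peaks could fall under 1 mutant peak, and the 53 matched 49 distinct mutant peaks. With a single copy of the word as the minimum, 110 of 191 peaks were kept and 38 of those were lower, and with a minimum of 2 copies 59 of 60 were kept and 2 were lower. No lost peak reached 3 copies (0 of 5008, upper limit 0.0736%), while 10 of 272 new peaks did. Among nuclear kept peaks of the strongest stratum without it, 11 of 1556 had a ratio over 1. The nuclear kept peaks of that stratum with a ratio over 2 were 39, and 36 of them held the repeat, whereas over all strata it was at 51 of 82. The 4 largest ratios of all, 14.9 to 26.8, were at weak control peaks (1.25- to 1.62-fold) without the word, and all 4 lay under a mutant peak that also covered a neighbouring tandem repeat peak. This was so for 12 of the 31 kept peaks without the repeat at a ratio over 2.

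The repeat was rare in the genome and mostly occupied. Of 333129 windows of 301 bp along the nuclear chromosomes 136 (0.0408%) held 3 or more copies, and of those 102 were overlapped by a control peak and 114 by a mutant peak. The 53 peaks lay in introns (23), between genes (23), in exons that are not coding (5) and in coding exons (2), and their number by chromosome ran from 1 on X to 14 on II. Short reads cannot always be placed at 1 copy of such an array, and duplicates were kept, so the fold of one array is uncertain against that of another. The local H3 was raised at some, up to 30.9 times the genome level in control and 28.8 times in mutants. At the 35 peaks where it was no more than 2 times the genome level, the median ratio was 2.95 (range 1.63 to 11.04).

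The single arrays give the size of the change. At IV:10943444-10944221 the fold was 8.84 in control and 33.4 in mutants, with summit pileups of 38099 and 136342. The pair upstream of vha-19 had folds of 7.06 and 28.6 at IV:3366669-3367199 and of 10.1 and 36.1 at IV:3367395-3368054. In an intron within the age-1 promoter window (II:11527817-11528644) the fold was 8.12 and 33.6, and in the window of fbf-1, a Pumilio-family regulator of germline stem cells (II:6081899-6082420), 5.96 and 20.3. It was 6.98 and 24.9 near avr-14, a glutamate-gated chloride channel, 4.52 and 12.56 near csp-1, a caspase, and 4.02 and 13.7 near clec-163, a C-type lectin. Arrays of weak control fold were higher as well, as at elt-6, a GATA factor, with 1.71 and 4.14.

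The arrays were mostly higher in the other set-26(tm2467) pair as well, and mostly not in hcf-1(pk924). With glp-1 RNAi, 16 of the 53 were in the control list and 39 in the set-26(tm2467) list, whereas these lists overlapped 94.6% and 83.7% of all control peaks. Of the 16 in both 15 were higher in the mutant, with a median ratio of 2.75. At age-1 the glp-1 RNAi fold was 2.28 in control and 7.13 in set-26(tm2467). In hcf-1(pk924) on L4440, which shares the control libraries, 46 were present, 19 were higher and the median ratio was 0.931. Of all control peaks 77.8% were present there, of which 64.2% were lower, and their median ratio was 0.939. On L4440 SET-26 peaks overlapped 2 of the 53 and HCF-1 peaks 3, against 53.4% and 44.4% of all control peaks. In these lists 0 peaks had the repeat at their own summit. In the OP50 lists, called against antibody background, SET-26 peaks overlapped 2 of the 53 and HCF-1 peaks 13. There 2 SET-26 peaks and 9 HCF-1 peaks had the repeat at their own summit.

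**Figure D4:**
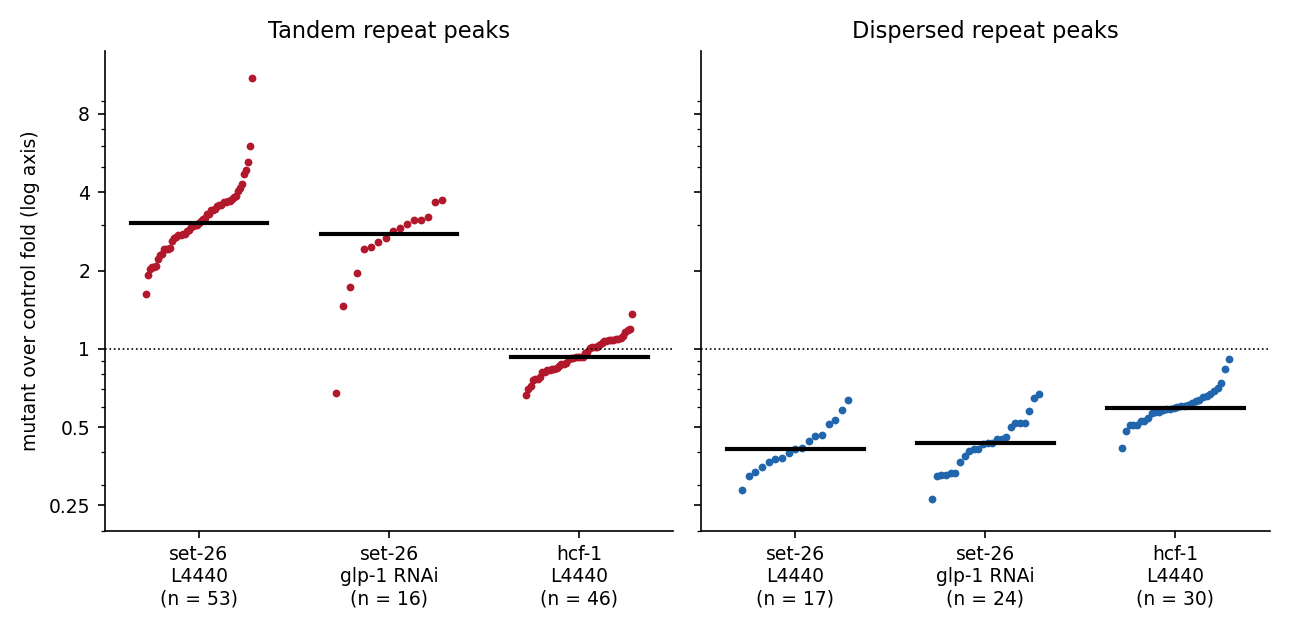
Ratio of mutant to control fold (y axis, log) for single peaks present in both lists of a pair, with the median as a bar, for the tandem repeat (left) and the dispersed repeat (right). The medians were 3.04, 2.75 and 0.931 for the tandem repeat and 0.410, 0.433 and 0.595 for the dispersed repeat, in set-26(tm2467) on L4440, set-26(tm2467) with glp-1 RNAi and hcf-1(pk924) on L4440.

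The dispersed repeat was kept about as often as other peaks over all strata, less often in the fourth and the strongest stratum, and had lower ratios. Its 5 words were likewise read, after the values were seen, from the sequences of peaks of low ratio. The counts below include such peaks, so they are a description and no support for the pattern. A peak counted if at least 3 of the 5 words were within 301 bp around its summit. Of the control peaks 45 did, and 70 of 333129 windows of the genome (0.0210%). Of the 45 peaks 17 were kept (37.8%, 23.8 to 53.5), near the 39.3% of all control peaks. With strata numbered from 1, the weakest, to 5, no dispersed peak of strata 2, 3 and 4 was kept (0 of 4, 0 of 8 and 0 of 12). Of the other peaks of those strata 10.6%, 23.2% and 59.8% were kept. These counts of 0 allow shares of up to 60.2%, 36.9% and 26.5%, so only in the fourth stratum is the limit under the share of the other peaks. With 2 words as the minimum these counts were nearly the same (18 of 48 kept, 0 of 12 in the fourth stratum), but with 1 word 47 of 109 were kept, 11 of 34 in the fourth stratum, and the median ratio was 0.559. In the strongest stratum 17 of 21 were kept, against 97.3% of the other peaks. The median ratio there was 0.410 against 0.581 for the other peaks, and 16 of the 17 were under that median. Most low ratios were at peaks without it: it was at 8 of the 40 lowest of that stratum and at 8 of the 28 under 0.4. Their local H3 was no more than 2 times the genome level at all 45.

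Most of the 45 dispersed peaks also had peaks of SET-26 and HCF-1. The printed copies shared runs of up to 62 identical bases, so short reads can be shared among copies. Binding at any single copy is therefore uncertain. SET-26 had a peak on L4440 at 44 of the 45, with a median fold of 4.75, and HCF-1 at 37 with a median of 3.31, whereas 53.4% and 44.4% of all control HDA-1 peaks had one. All 45 were in the glp-1 RNAi control list, and of these 24 were in the set-26(tm2467) list with glp-1 RNAi, all 24 lower, at a median ratio of 0.433. In hcf-1(pk924) on L4440 30 were present, all 30 lower, at a median ratio of 0.595. The 45 lay mostly between genes (35), beside genes such as pgk-1 (phosphoglycerate kinase), mes-4 (a histone H3 lysine 36 methyltransferase), let-607, him-6 (a RecQ helicase) and hsp-4 (an endoplasmic reticulum chaperone).

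The mitochondrial genome was a further exception. All 12 control peaks on it were kept and all 12 had a higher fold, with ratios from 1.29 to 1.58 and control folds from 1.16 to 1.39. The local background from the H3 libraries there was 67.0 to 162 times the nuclear level in control. It was itself higher in mutants, at a median of 1.88 times, while the pileup was at 2.64 times. Whether these tags came from bound HDA-1 or from H3 was not tested, so the higher fold does not show more HDA-1 binding. The rDNA array at the end of chromosome I had ratios of 0.525 to 0.624 over 3 peaks and the array of 5S rDNA and SL1 genes on V 0.651 to 0.963 over 15. Counting the summit pileup over a peak's whole width, which is an upper limit, mitochondrial peaks took at most 1.73% of the scaled tags in control and 5.51% in mutants, and tandem repeat peaks 1.03% and 4.18%. The rDNA took at most 10.7% and 7.28%, and peaks outside these and other regions of high H3 16.13% and 4.84%. The part of these shares in the lower fold elsewhere was not tested.

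The kept share on X and on the autosomes was the same within counting error. It was 39.3% on X (37.0 to 41.6) and 39.2% on the autosomes (38.0 to 40.4), and it ran from 36.2% on V to 41.7% on III. Within strata the values were close, at 64% of X peaks and 58.1% of autosomal peaks in the fourth stratum and 98.5% and 96.8% in the strongest. New peaks were 4.52% of mutant peaks on X and 8.06% on the autosomes.

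SET-26 itself bound at both kept and lost HDA-1 sites, more often at kept ones overall and at similar shares within strata. Peaks of SET-26 on L4440 overlapped 69.8% of kept, 42.8% of lost and 8.46% of new peaks. The shares were 43% of kept and 48.5% of lost peaks in the third stratum, 65.4% and 64.2% in the fourth stratum, and 85% and 83% in the strongest. For HCF-1 on L4440 the shares were 58.9% of kept, 35.0% of lost and 4.41% of new peaks, and in the third stratum lost peaks had the higher share, 38.9% against 31.3%. With all lists limited to a fold of at least 3, HCF-1 overlapped 33.5% of kept and 28.6% of lost peaks.

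HDA-1 was not kept more often where HCF-1 was kept than where it was lost. In set-26(tm2467) worms on L4440 the HCF-1 list, from other libraries, kept 44% of its own control peaks. Over all strata HDA-1 was kept at 47.6% of peaks with a kept HCF-1 peak, 58.5% with a lost one and 29.1% with none. In the fourth stratum HDA-1 was kept at 52% of peaks whose HCF-1 peak was kept, at 65.5% of those whose HCF-1 peak was lost and at 61.6% of those without HCF-1. Control HDA-1 peaks with both SET-26 and HCF-1 were kept at 54%, those with SET-26 alone at 43.6%, those with HCF-1 alone at 36.1% and those with neither at 24.4%, and their median control folds were 2.38, 2.01, 1.83 and 1.71. Within strata this order was not seen: in the third stratum the shares were 19.3%, 25.7%, 22.8% and 25.5%, and in the fourth stratum 57.4%, 66.1%, 56.4% and 58.9%.

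Over all strata kept and lost peaks differed little in how often they lay at promoters, and new peaks differed more. A promoter window overlapped 62.2% of kept, 60.8% of lost and 27.9% of new peaks. Within each stratum lost peaks overlapped one more often than kept peaks, although the strongest held only 47 lost peaks. From the weakest stratum up, the shares of lost peaks were 54.4%, 59.4%, 64.2%, 71.5% and 70.2%. Those of kept peaks were 36.4%, 50%, 55.7%, 62.4% and 66.6%. Coding exons held 3.54% of kept, 7.09% of lost and 31.6% of new peaks. The median distance of the summit from the nearest gene start was 1097 bp for kept, 947 bp for lost and 2680.5 bp for new peaks.

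The DNA under the summits differed in composition. Median GC content in 301 bp was 43.5% at kept, 38.2% at lost and 46.2% at new peaks, and 35.5% in windows of the same length at gene starts. TGATAA, on either strand, was found at 22% of kept, 37.4% of lost and 10.3% of new peaks and in 29.3% of gene start windows. In the fourth stratum it was at 28% of kept and 33.1% of lost peaks. GAGAGAGA went the other way, at 19.5% of kept, 9.62% of lost and 3.68% of new peaks and in 2.82% of gene start windows, and at 16.12% of kept and 11.2% of lost peaks of the fourth stratum. CACGTG, the E-box core, was at 9.15% of kept and 7.73% of lost peaks, CGCG at 45.2% and 36.7% (43.7% and 44.5% in the fourth stratum), and the heat shock core TTCNNGAA at 10.8% and 14.1%. CAGCTG was at 7.83% and 6.53%, TTTCCCGC, an E2F-like site, at 2.47% and 1.98%, and GTAAACA, the forkhead core that DAF-16 binds, at 5.79% and 6.03%.

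Read by gene, more promoters lost their HDA-1 peak than kept one. Of 19985 protein-coding genes 5927 had a promoter peak in control and 2695 in mutants, 2612 of the 5927 (44.1%, 42.8 to 45.3) kept one, and 83 genes had one in mutants alone. With both lists limited to a fold of at least 3, 26% kept one. Of the genes bound in control 51.1% had their strongest peak in the 2 strongest strata, and of those 74.3% kept a promoter peak.

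Histone genes had a high kept share, part of it from shared peaks. Of 70 bound histone genes 62 (88.6%) kept a promoter peak, against 44.1% of all bound genes. Of the 70, 62.9% had a control peak in the 2 strongest strata, against 51.1% of all bound genes. Among all bound genes with such a peak 74.3% kept one. Clustered genes share peaks, and of the 36 distinct peaks 29 (80.6%) were kept. At his-42 the fold was 7.01 in control and 3.60 in mutants, and at the cluster with his-35 4.70 and 1.98. The peaks of htz-1, the H2A.Z variant (2.38-fold), and of the linker histone genes hil-1 (2.09) and his-24 (1.89) were lost.

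Of 67 bound cytosolic ribosome genes 19 (28.4%, 18 to 40.7) kept a promoter peak, under the 44.1% of all bound genes. Of the 67, 41.8% had a control peak in the 2 strongest strata, against 51.1% of all bound genes. Of 31 bound mitochondrial ribosome genes 41.9% had such a control peak. Of the 31, 8 (25.8%, 11.9 to 44.6) kept a promoter peak, an interval that includes 44.1%. Lost peaks included rpl-20 (2.73), rps-19 (2.62), mrpl-42 (2.67) and mrpl-40 (2.27), and kept ones rps-16 (5.28 in control, 2.56 in mutants), mrpl-15 (4.91 and 2.36) and mrps-21 (4.71 and 2.34). Of 13 bound genes for mitochondrial import and its stress response 2 kept one (15.4%, 1.92 to 45.4), an interval that also includes it. Among them the peaks of the chaperone gene hsp-6 (2.79), the elongation factor tufm-1 (2.59) and the ubiquitin-like ubl-5 (2.19) were lost, and that of atfs-1, the transcription factor of that response, and of the chaperone gene hsp-60 were kept (5.11 and 2.80, 3.52 and 1.64). Oxidative phosphorylation stood at 10 of 23, although 65.2% of those genes had a control peak in the 2 strongest strata, with ucr-1 (2.30) lost and cox-14 (6.08 and 3.35) and cox-10 (5.29 and 2.46) kept. Proteasome genes stood at 9 of 27, collagens at 8 of 32 and innate immunity genes at 10 of 48. In that order 48.1%, 28.1% and 31.25% of these genes had a control peak in the 2 strongest strata.

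Other lists are given beside the 44.1% of all bound genes, of which 51.1% had their strongest peak in the 2 strongest strata. Lipid metabolism kept 30 of 48 (62.5%, 47.4 to 76.0), of which 72.9% had a control peak in the 2 strongest strata, and its kept peaks included those of the lipase gene atgl-1 (9.61 and 5.56), the desaturase gene fat-2 (6.05 and 4.02) and the nuclear receptor gene nhr-49 (6.04 and 2.48). Stress response genes kept 17 of 29 (58.6%, 38.9 to 76.5), of which 82.8% had such a peak, and the hsp-16 cluster on V went from 14.7 to 5.64. Longevity regulators kept 12 of 17 (70.6%, 44.04 to 89.7), with rsks-1, the S6 kinase (4.64 and 2.89), and crtc-1 (4.55 and 2.56) lower and age-1, whose peak holds the tandem repeat, higher. Dosage compensation and the list of SET-26, HCF-1 and H3K4 methylation each kept 9 of 12 (42.8 to 94.5%). In these 3 lists 70.6%, 91.7% and 75% of genes had a control peak in the 2 strongest strata. Among all bound genes with such a peak 74.3% kept a promoter peak. Among chromatin factors, ogt-1, the O-GlcNAc transferase (9.25 and 5.39), rbr-2, a histone H3 lysine 4 demethylase (6.22 and 3.76), and mep-1 (9.74 and 4.76) and lin-13 (9.62 and 3.60) were kept, and set-2, the methyltransferase of COMPASS (1.81), sin-3 (2.70), let-418, the Mi-2 subunit (1.92), and rcor-1 (1.87) were lost. The weak peaks at the genes under study themselves were also lost: set-26 (1.85 in control), hda-1 (1.81) and hcf-1 (1.54).

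**Figure D5:**
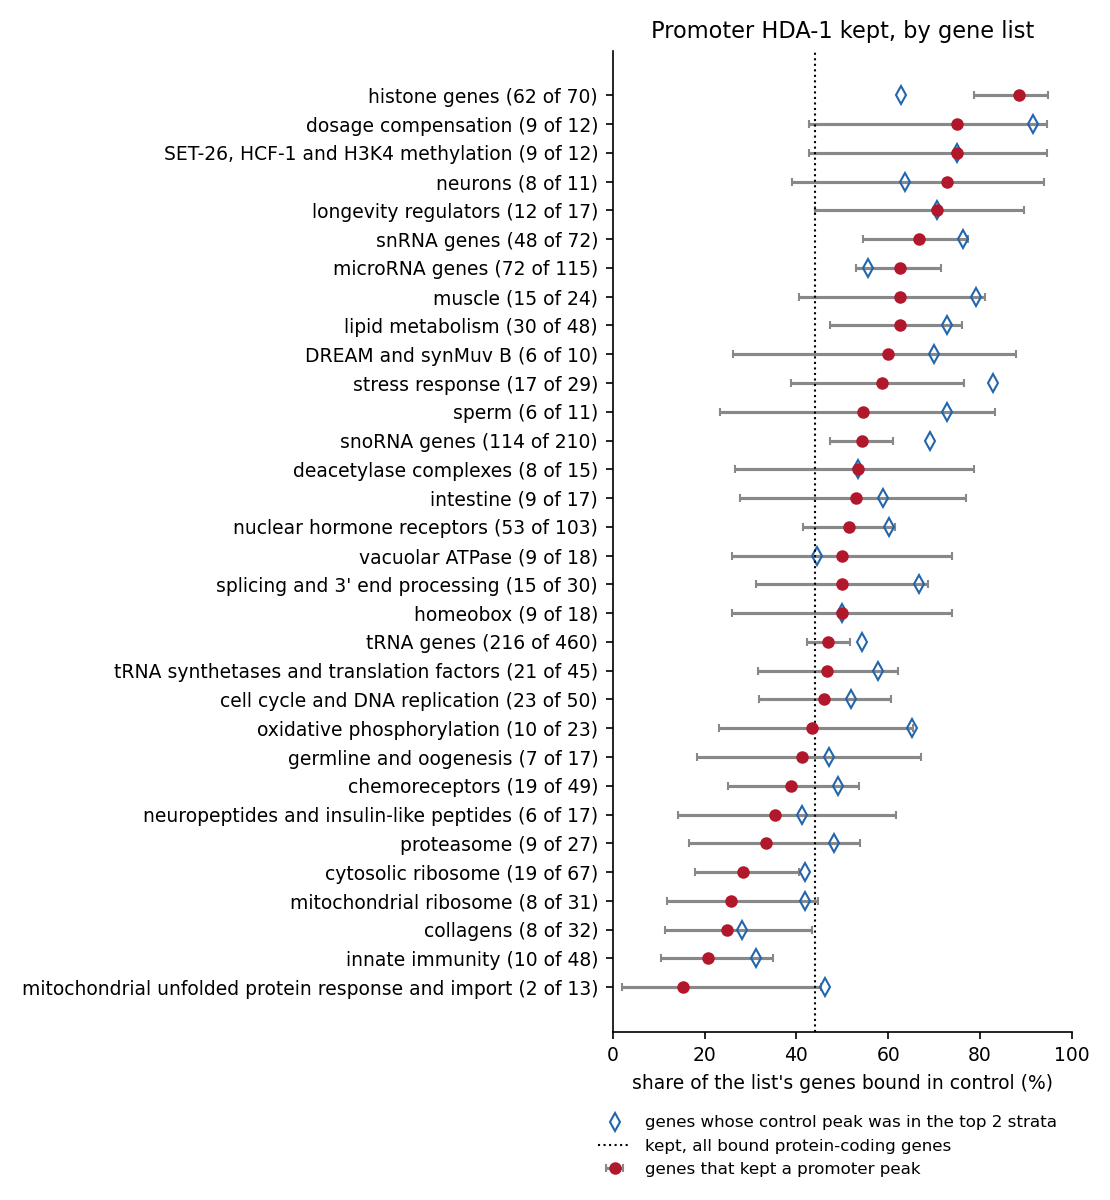
Share of each list's genes bound in control that kept a promoter peak (red, x axis in %) with exact 95% intervals, the share whose strongest control peak was in the top 2 strata (blue), and the 44.1% of all bound genes (dotted line). Only lists with at least 10 bound genes are drawn, and histone genes stand at 62 of 70, with genes that share a peak counted separately.

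The lists for germline and somatic tissues could not be told from the 44.1% of all bound genes. Germline and oogenesis genes kept 7 of 17 (18.4 to 67.1%), meiosis genes 4 of 8 (15.7 to 84.3%) and sperm genes 6 of 11 (23.4 to 83.3%). Muscle genes kept 15 of 24 (40.6 to 81.2%), of which 79.2% had a control peak in the 2 strongest strata, and intestine genes 9 of 17 (27.8 to 77.0%). Lost germline peaks included mes-6 (2.19) and nos-3 (2.01), and kept ones cgh-1 (3.55 and 2.21) and lin-41 (3.51 and 2.31). Kept muscle peaks included unc-60 (7.05 and 3.91) and unc-112 (6.20 and 3.78), and myo-3 (2.15) was lost. Nuclear hormone receptors kept 53 of 103. Genes for small RNAs often share peaks and have no background of genes here. They are given by distinct peaks, beside the 39.3% of all control peaks that were kept. At microRNA genes 51 of 92 peaks (55.4%) were kept, and at snRNA genes 38 of 59 (64.4%). The counts were 110 of 194 (56.7%) at snoRNA genes and 144 of 331 (43.5%) at tRNA genes. In that order 55.7%, 76.4%, 69.0% and 54.3% of the genes had a control peak in the 2 strongest strata.

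The wide peaks over the yolk protein genes were lower or lost. The 6 vitellogenin genes, expressed in the adult intestine, each lay under a peak of 6075 to 6741 bp. In control and mutants the fold was 5.79 and 3.10 at vit-6, 4.47 and 2.90 at vit-2, 4.0 and 1.72 at vit-5, 3.19 and 1.49 at vit-3 and 3.06 and 1.39 at vit-4, and vit-1 (3.11) was lost. The vit genes are close in sequence, so reads can be shared among them. In glp-1 RNAi worms the fold at vit-6 was 4.47 and 3.31 and at vit-5 4.87 and 2.79. The wide peaks over the pud-1 and pud-2 genes on V, named for proteins that rise in daf-2 mutants, were lost from 3.97 and 3.66. Of 73 control peaks with at least 5 summits 66 were kept, against 39.3% of all control peaks, and their median control fold was 3.82 against 1.92. The 7 lost ones were these 2, vit-1, and peaks at nstp-10 and ehbp-1 (2.77), at F52E1.14 and hsp-17 (1.93), at srt-42 (1.78) and in an intron on IV (1.80).

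The 272 new peaks were weak and set apart from the shared ones. The 12 strongest at promoters had folds from 1.29 to 3.17, and the highest was at pqn-87 and sinh-1 (II:12226031-12226538), in a coding exon and in none of the other HDA-1 lists examined. The next by fold were at clec-126 (2.82), where the tandem word occurred 3 times, at Y50E8A.6 (2.72) and at F33A8.7 (2.48), where it occurred 4 times. The promoter window of clec-126 also held a control peak of 6.50-fold, which was kept. Local H3 was over 2 times the genome level at 54 new peaks (19.9%), as at clc-23 and fbxa-75 (16.54 and 20.6 times), against 1.02% of control peaks. At apt-9, a subunit of a clathrin adaptor, the new peak (1.96) was also in both glp-1 RNAi lists at 2.44 and 2.50.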

How the data were processed

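Members and gene lists were chosen with earlier results of these data known. The 8 samples were control and set-26(tm2467) worms on L4440, 2 replicates each of HDA-1 and of H3. The sample titles were followed for the allele, which 1 label field spells tm42467. Per the submitters' notes and the study's methods, reads were trimmed with Trim Galore 0.6.5, aligned with Bowtie2 2.4.3 to WBcel235 and merged per group with SAMtools. MACS2 2.1.4 was run by the authors, per the file headers, at a q-value threshold of 0.01 with an extension of 200 bp and all duplicates, and it scaled down the deeper of the 2 libraries. Duplicates kept and short reads make values in repeats less certain.

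The deposited signal is the authors' pileup of scaled tags at a summit. The deposited fold is the authors' ratio of pileup to a local H3 background (antibody background for worms on OP50), and the deposited −log10 q comes from their test of that summit. Local H3 was computed back from pileup and fold. Summits with 1 start and end were counted as 1 peak, with the values of the summit of highest −log10 q. The mutant value at a kept peak is that of the overlapping mutant peak with the highest −log10 q, so neighbouring control peaks can share one (3245 kept peaks, 3207 mutant peaks). For genes of the lists, the mutant value is that of the mutant peak of highest −log10 q in the promoter window. That peak need not overlap the control peak. Folds quoted from other lists for single peaks and for the tandem repeat are the highest among overlapping peaks.

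Python 3.11.15 with pandas 2.3.3, SciPy 1.17.1 and matplotlib 3.10.9 was used, and the functions were tested on simulated data. Depth is known only for merged libraries. Genes were those of Ensembl release 115. A gene was bound if a peak overlapped its window, so neighbouring genes can share a peak. Words were counted on both strands in 301 bp around summits. Named peaks were the 12 strongest lost, kept and new at promoters, the 6 highest and 6 lowest fold ratios of the strongest stratum, and in each gene list up to 4 lost and 4 kept genes by −log10 q. Genes named only beside the 2 repeats, the vit and pud genes, and both repeat classes with their words and thresholds were chosen after their values were seen; all word thresholds tried are given. Alternative overlaps, thresholds and windows were tried. The study's test of replicates needs reads that were not used here.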

Additional observations from a re-analysis of the deposited data

Results flagged for a closer look

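One named peak had opposite directions in the 2 set-26(tm2467) pairs. At hlh-11 the fold on L4440 was 18.8 in control and 11 in mutants (ratio 0.584), and with glp-1 RNAi it was 16.9 and 18.7 (ratio 1.11). With 1 merged list per group, the difference was not tested.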

How the results depend on the processing

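No paired analysis was possible because each list was called on merged replicates; for the same reason no replicate could be left out. Of the alternatives fixed at the start, 14 stayed within the interval of the reported value and 18 moved. The kept share was 30.4% when at least 50% of the control peak had to be overlapped, 37.9% with the control summit inside a mutant peak, 43.8% with a mutant peak within 500 bp, and 72.6% with the control list reduced to the number of mutant peaks. With both lists at a fold of at least 3 the kept share was 30.2% (29.0% on X, 30.5% on autosomes), the ratio of peak numbers 0.332 and the kept share of bound genes 26%, and with a promoter window of 500 bp on each side that share was 38.8%. With all lists at that fold SET-26 overlapped 55.1% of kept and 44.4% of lost peaks and HCF-1 33.5% and 28.6%. With the lists of wild type worms on OP50 it was 75.3% and 47.7% for SET-26 and 69.7% and 41.1% for HCF-1. Of the alternatives chosen after seeing the data 15 stayed within the interval or range of the reported value and 3 moved. Without peaks of local H3 over 2 times the genome level 6.16% of mutant peaks were new. Among all kept peaks of the strongest stratum the median fold ratio was 0.583. With a minimum of 1 copy of the tandem word 57.6% of its peaks were kept at a median ratio of 2.29. Pairing each control peak with the mutant peak of nearest summit left the tandem median at 3.04 and gave 0.40 for the dispersed repeat. The cause of each change was not tested, and weak peaks cannot be told from absent ones at this depth.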
